A study of Mus musculus with 4 samples.

Results

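Carbonic anhydrases are zinc enzymes that interconvert carbon dioxide and water with bicarbonate and a proton. The mouse family holds cytosolic, mitochondrial, membrane-bound and secreted enzymes, and also related proteins that have lost the catalytic activity. In bone the family is best known for Car2, which supplies the protons that osteoclasts pump onto the bone surface. Car1 and Car2 are abundant in red blood cells, and Car3 is known as a major protein of slow skeletal muscle, fat and liver. The 10 genes described here were selected by their symbols in the deposited gene table, which lists 54532 genes. They are Car1, Car2, Car3, Car4, Car5b, Car6, Car8, Car9, Car12 and Car13. Car3 was noted in the selection because of its abundance, so its level is given below as a description. Of the 10 genes, 8 had counts and all 8 passed the filter on low counts, while Car4 and Car6 had no count in any library.

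The cells came from the periosteum, the sheet on the outer surface of bone, of long bones of mice aged 4 weeks. The Sfrp4-/- group was CtskCre;mTmG;Sfrp4-/- and the WT group was CtskCre;mTmG;wt, so both groups carried the Cre driven by Ctsk and the mTmG reporter, in which Cre switches on GFP, and neither was treated. Sfrp4 encodes a secreted protein that binds Wnt ligands, and the study compared the genotypes to learn how the Ctsk-lineage cells change without it. The sort kept GFP+ CD200+ cells, after removal of those carrying CD105 or 6C3, the T cell antigen Thy1.2, the red cell antigen Ter119, the endothelial CD31 or the leukocyte CD45. Ctsk is itself a gene of osteoclasts, so the lineage label does not by itself separate osteoclasts from other cells. Each genotype had 2 libraries, and each library was made from the pooled cells of 3 mice, so p-values measure the spread between pools and not between animals. The libraries held 17119332 to 18750003 counts.

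The labels were checked on the deleted gene. Sfrp4 was measured at 11.4 and 12.1 CPM (counts per 1000000, with totals scaled for library composition) in Sfrp4-/- libraries, against 90.7 and 107 CPM in WT libraries. The deleted stretch of Sfrp4 is not given in the labels, so whether the 211 and 249 counts left in Sfrp4-/- libraries fall inside it was not tested. All 7 genes listed for the labelled cells were detected, among them Ctsk at 1460 and 1683 CPM in Sfrp4-/- libraries and 1053 and 2048 CPM in WT libraries. The 7 genes summed to 163310 and 64897 CPM in Sfrp4-/- libraries and 251470 and 97376 CPM in WT libraries. Most of this sum was the collagen genes Col1a1 and Col1a2. Col1a2 was at 96065 and 35370 CPM in Sfrp4-/- libraries and 139743 and 58905 CPM in WT libraries. Replicate 1 thus had the higher sum in both genotypes, whereas Ctsk and Cd200 were higher in replicate 2 of both. The log2 fold changes of the 7 genes, Sfrp4-/- over WT, were above 0 in 3 and below 0 in 4, with a median of -0.35. Cd200, used in the sort, was at 441 and 464 CPM in Sfrp4-/- libraries and 485 and 668 CPM in WT libraries. Genes of osteoclasts were detected as well, all 14 of those listed, of which Ctsk stands in both lists, with Acp5, an osteoclast phosphatase, at 1511 and 1888 CPM in Sfrp4-/- libraries and 1303 and 1864 CPM in WT libraries. In bulk samples, fewer cells of a type and less RNA per cell cannot be told apart.

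Car1, Car2, Car3 and Car13 are neighbours within 259 kb of chromosome 3, from 14641727 to 14900770 (mm10). Because they arose as copies of each other, the sequences are shown to let a reader judge whether reads of the abundant Car3 could have been counted for its neighbours. The stretch chosen was the 60 coding bases in which Car3 and Car2 differ least, and it encodes part of the zinc-binding active site. Sequences are from GENCODE M21 transcripts (GRCm38), on the coding strand, and capitals mark bases that differ from Car3. They are coding bases 310 to 369 of Car3 and Car2 and 313 to 372 of Car1 and Car13.
Car3: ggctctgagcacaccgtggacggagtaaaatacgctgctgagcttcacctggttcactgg
Car2: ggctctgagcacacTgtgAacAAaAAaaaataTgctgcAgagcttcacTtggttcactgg
Car1: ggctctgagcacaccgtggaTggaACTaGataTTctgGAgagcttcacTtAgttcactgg
Car13: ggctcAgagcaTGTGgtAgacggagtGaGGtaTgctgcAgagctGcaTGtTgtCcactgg
Within this stretch Car2 had 9 differences from Car3, Car1 had 11 and Car13 had 16. Over the whole aligned coding sequence, Car3 shared 64.8% of bases with Car2, 67.3% with Car1 and 64.3% with Car13. The longest identical run was 14 bases with Car2, 20 with Car1 and 9 with Car13. No 50-base window of a Car2, Car3, Car12 or Car13 transcript occurred in a transcript of another gene on either strand. Of the Car1 windows 13.4% also occurred in Gm5843, an unprocessed pseudogene in the same cluster, so its count could be split. Gm5843 itself had 1 count in Sfrp4-/- replicate 1 and 0 in the other libraries. Car9 shared 9.29% of its exon bases with Gm12454, which libraries without strand information cannot separate.

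**Figure D1:**
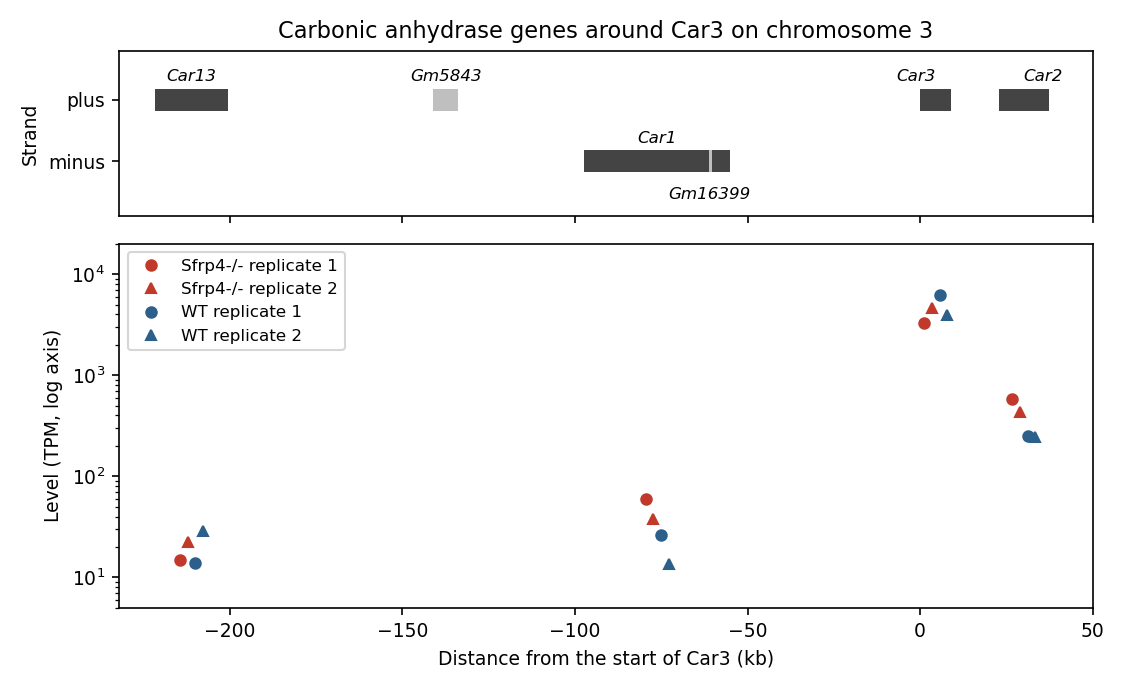
Upper panel, the carbonic anhydrase genes (dark) and 2 pseudogenes (grey) by strand, against distance in kb from the start of Car3. Lower panel, level of each carbonic anhydrase gene in TPM on a log axis, 1 point per library. Car3, at 3274 to 6161 TPM, stands above Car2 next to it, at 244 to 589 TPM, and above Car1 and Car13 further away.

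Transcript levels, compared between genes as TPM (counts per length, scaled to a sum of 1000000 in each library), spanned the range from Car3 down to no count. Car3 was at 3274 and 4642 TPM in Sfrp4-/- libraries and 6161 and 3921 TPM in WT libraries. It ranked 29th and 19th of all listed genes by TPM in Sfrp4-/- libraries, and 14th and 29th in WT libraries. Car2 followed at 589 and 429 TPM in Sfrp4-/- libraries and 249 and 244 TPM in WT libraries. Both genes therefore lay among the abundant transcripts, and the other members were far lower. Car1 had 60.3 and 37.9 TPM in Sfrp4-/- libraries and 26.2 and 13.6 TPM in WT libraries. Car13 had 14.8 and 22.5 TPM in Sfrp4-/- libraries and 13.8 and 28.8 TPM in WT libraries. Car8 had 2.01 and 5.93 TPM in Sfrp4-/- libraries and 3.59 and 7.59 TPM in WT libraries. These overlapped with Car12, which had 3.87 and 3.08 TPM in Sfrp4-/- libraries and 2.27 and 4.99 TPM in WT libraries. Car9 lay between 0.657 and 1.78 TPM over the 4 libraries and Car5b between 0.0236 and 0.322 TPM. In this order the ranges over the 4 libraries overlapped for Car1 with Car13 and for Car8 with Car12, and did not overlap between the other neighbours down to Car5b.

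**Figure D2:**
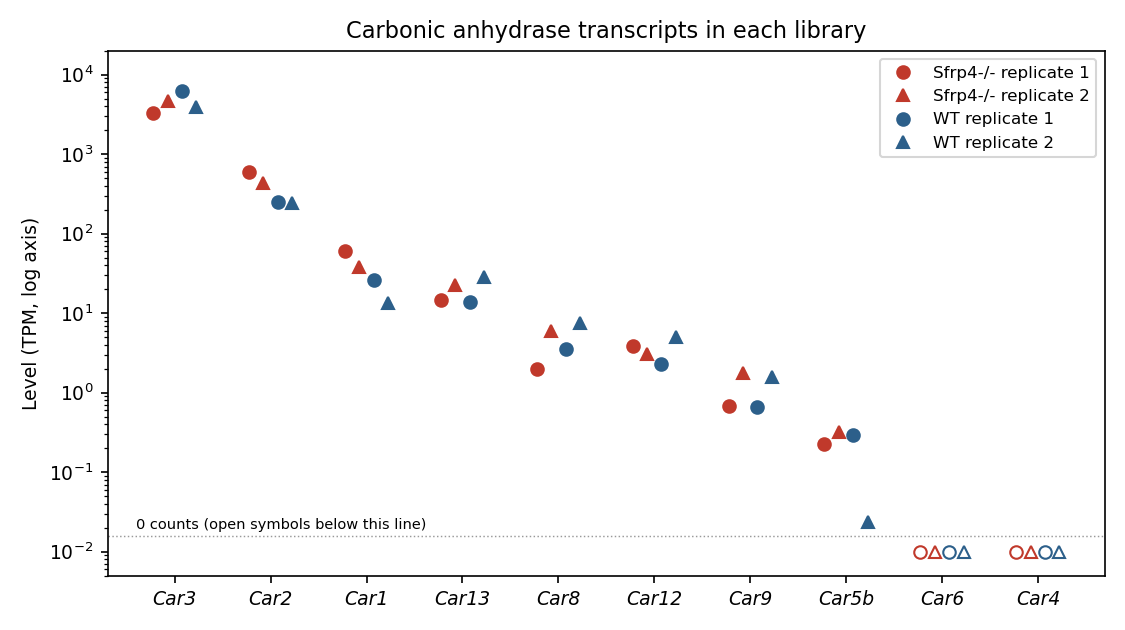
Level of each of the 10 carbonic anhydrase genes in TPM on a log axis, 1 point per library, genes in order of their mean. Car3 and Car2 stand above the rest, the Sfrp4-/- points of Car2 and Car1 lie above the WT points, and Car6 and Car4 had 0 counts (open symbols, drawn at an arbitrary height).

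Car3 alone made up most of the family's transcripts. It gave 83.0% and 90.3% of the summed TPM of the 10 genes in Sfrp4-/- libraries, and 95.4% and 92.9% in WT libraries. Car2 gave 14.9% and 8.35% in Sfrp4-/- libraries, and 3.86% and 5.77% in WT libraries. The ratio of Car3 to Car2, formed within each library and so free of any scaling between libraries, was 5.56 and 10.8 in Sfrp4-/- libraries, against 24.7 and 16.1 in WT libraries. The groups did not overlap in this ratio, which was lower in both Sfrp4-/- libraries. On the log2 scale it averaged 2.96 ± 0.68 in Sfrp4-/- and 4.32 ± 0.44 in WT libraries (SD, n = 2 each), a difference of -1.36. An exact two-sided permutation test over libraries gave p = 0.333, the smallest value that 2 libraries against 2 allow. Any ratio without overlap gives this same value. The share of other gene pairs without overlap was not determined. Among single tested genes, both Sfrp4-/- libraries lay above both WT libraries in 15.0% and below them in 12.6%, by CPM. Without Car3, the summed level of the other members was 671 and 501 TPM in Sfrp4-/- libraries and 296 and 300 TPM in WT libraries.

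No carbonic anhydrase gene passed the test between the genotypes. The edgeR quasi-likelihood test was fitted over 13737 genes, and 0% of them had a Benjamini-Hochberg adjusted p under 0.05. The adjusted p was 1.00 for each of the 8 tested members. At an unadjusted p under 0.05, edgeR gave 2 of the 8, both higher in Sfrp4-/- libraries, against 194 genes (1.41%) higher and 97 (0.706%) lower over all tested genes. DESeq2 and limma-voom also called 0 members, while over all genes they called 7 (0.0322%) and 0 (0%). Both Sfrp4-/- libraries lay above both WT libraries in 2 of the 8 members, Car1 and Car2, beside 15.0% of all tested genes. They lay below in 0 of the 8, beside 12.6% of all tested genes. Fitted log2 fold changes, Sfrp4-/- over WT throughout, were above 0 in 3 members and below 0 in 5, with a median of -0.13, beside 0.0032 over all tested genes. Scaling by library totals alone shifted the median of all genes to 0.24.

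**Figure D3:**
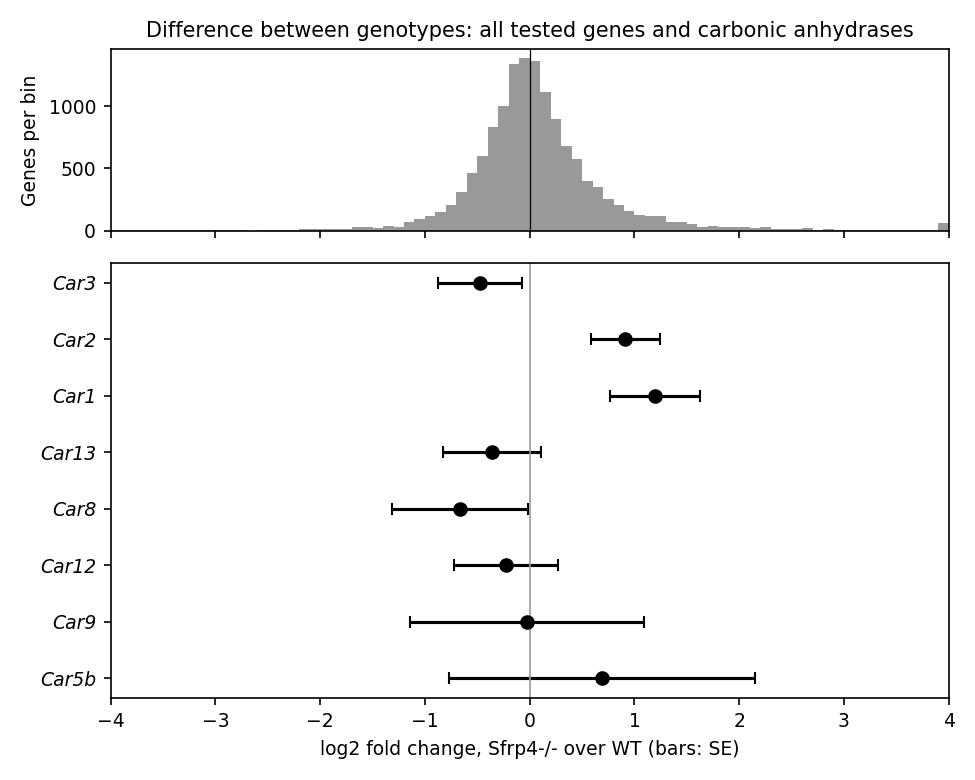
Upper panel, histogram of log2 fold changes (Sfrp4-/- over WT) of the 13737 tested genes, with values beyond the axis placed in the end bins. Lower panel, the 8 tested carbonic anhydrase genes, with bars for the SE of each fold change. Car1 at 1.19 and Car2 at 0.91 lie right of 0 by more than their bars, and Car3 at -0.47 and Car8 at -0.66 lie left of 0 by slightly more than theirs.

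Car2 encodes the highly active cytosolic enzyme of osteoclasts and red cells (ENSMUSG00000027562, plus strand of chromosome 3, 14886273 to 14900770). It was at 487 and 345 CPM in Sfrp4-/- libraries, against 213 and 229 CPM in WT libraries. Both Sfrp4-/- libraries were higher than both WT libraries, and the WT libraries lay close together. The means were 416 ± 100.1 CPM in Sfrp4-/- and 221 ± 11.9 CPM in WT libraries (SD, n = 2 each). The log2 fold change was 0.91 ± 0.33 (SE), or 1.88-fold, with an edgeR adjusted p of 1.00. It ranged from 0.65 to 1.14 when single libraries were left out, lowest without Sfrp4-/- replicate 1 (edgeR adjusted p from 0.660 to 1.00).

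Car1, the abundant but less active cytosolic enzyme of red cells (ENSMUSG00000027556, minus strand of chromosome 3, 14766216 to 14808368), was ordered in the same way. It was at 25.7 and 15.7 CPM in Sfrp4-/- libraries, against 11.5 and 6.58 CPM in WT libraries. The groups did not overlap, but Sfrp4-/- replicate 2 and WT replicate 1 were nearer to each other than the libraries within either genotype. The means were 20.7 ± 7.05 CPM in Sfrp4-/- and 9.05 ± 3.50 CPM in WT libraries (SD, n = 2 each). The log2 fold change was 1.19 ± 0.43 (SE), or 2.29-fold, with an edgeR adjusted p of 1.00. Without single libraries it ranged from 0.80, without Sfrp4-/- replicate 1, to 1.65, without WT replicate 1 (edgeR adjusted p from 0.331 to 1.00).

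Because both enzymes are abundant in red cells and Car2 in osteoclasts, the listed genes of these cells were set beside them. All 16 red cell precursor genes were tested and had log2 fold changes above 0, as 50.4% of all tested genes did, with a median of 1.22, and 0 passed the test. In 8 of the 16 both Sfrp4-/- libraries were above both WT libraries, beside 15.0% of all tested genes, and this share also stands beside the counts for the other cell types here. Their summed level, mostly globins, was 2197 and 2694 CPM in Sfrp4-/- libraries and 787 and 2208 CPM in WT libraries, so the groups overlapped. The 12 genes other than globins summed to 385 and 190 CPM in Sfrp4-/- libraries, against 133 and 187 CPM in WT libraries. This sum, like Car1 and Car2, was highest in Sfrp4-/- replicate 1, while WT replicate 2 and Sfrp4-/- replicate 2 lay together. The globin gene Hba-a1 was at 695 and 935 CPM in Sfrp4-/- libraries and 229 and 602 CPM in WT libraries, so it was lowest in WT replicate 1. Rhag, a gas channel protein of the red cell membrane, was at 23.4 and 9.91 CPM in Sfrp4-/- libraries and 4.86 and 4.78 CPM in WT libraries, a log2 fold change of 1.79 ± 0.49 (SE). Epb42, a protein of the red cell membrane skeleton, was at 9.11 and 3.01 CPM in Sfrp4-/- libraries and 0.533 and 0.932 CPM in WT libraries (log2 fold change 3.03 ± 0.79, SE). The 14 osteoclast genes had a smaller median of 0.15, with 13 of them above 0 and 0 past the test. In 1 of the 14 both Sfrp4-/- libraries were above both WT libraries, and the summed level was 5561 and 5484 CPM in Sfrp4-/- libraries and 4221 and 5689 CPM in WT libraries. The osteoclast genes with the lowest p, Tnfrsf11a (the receptor for the osteoclast-forming signal RANKL) and the matrix protease Mmp9, had log2 fold changes of 0.45 ± 0.42 and 0.38 ± 0.39 (SE). Of the 14 macrophage and neutrophil genes, 11 were above 0 and 3 below, with a median of 0.52 and 0 past the test, and in 6 both Sfrp4-/- libraries were above both WT libraries. They summed to 1455 and 1955 CPM in Sfrp4-/- libraries and 833 and 1692 CPM in WT libraries. The gene with the lowest p among them, C1qc, a complement gene of macrophages, was at 11.3 and 10.7 CPM in Sfrp4-/- libraries and 0.466 and 1.86 CPM in WT libraries (log2 fold change 3.21 ± 0.67, SE, edgeR adjusted p = 1.00). None of the listed genes of these 3 cell types was at 0 in all libraries. The part of red cell precursors, osteoclasts or other blood cells in the levels of Car1 and Car2 was not tested.

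**Figure D4:**
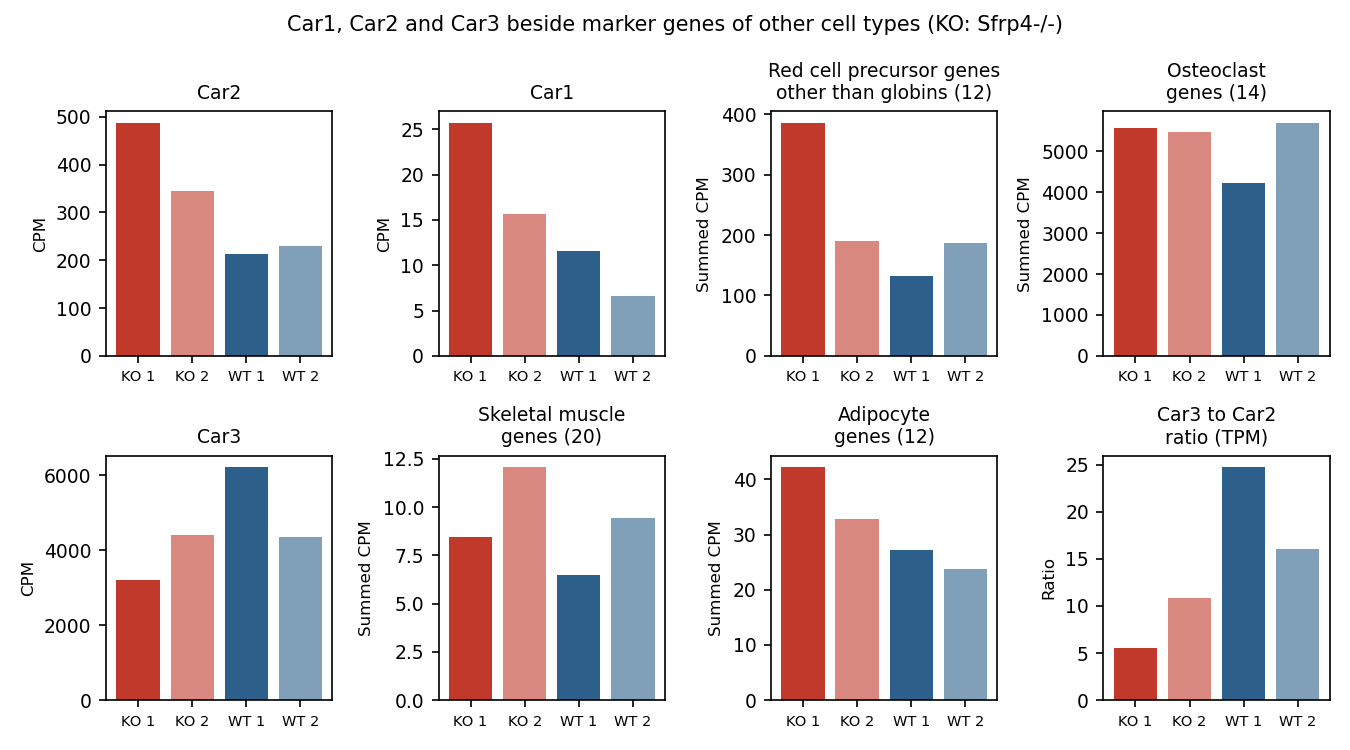
Bars give, for each library, the CPM of Car2, Car1 and Car3, the summed CPM of marker genes with their number in brackets, and the ratio of Car3 to Car2 in TPM. KO stands for Sfrp4-/-, and each bar is 1 library. Car1 and Car2 were higher in both KO libraries. The red cell precursor sum without globins was too, but only narrowly, with KO 2 at 190 CPM and WT 2 at 187 CPM. With the globins, which are not drawn, that sum overlapped between the genotypes. The osteoclast sum overlapped between the genotypes. Muscle and adipocyte sums stayed at or below 42.2 CPM beside 3202 to 6211 CPM of Car3.

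Car3 encodes a cytosolic enzyme of low catalytic activity (ENSMUSG00000027559, plus strand of chromosome 3, 14863512 to 14872523). It was at 3202 and 4416 CPM in Sfrp4-/- libraries, against 6211 and 4365 CPM in WT libraries. The lowest value was Sfrp4-/- replicate 1 and the highest WT replicate 1, while replicate 2 was almost the same in both genotypes, so the groups overlapped. The means were 3809 ± 859 CPM in Sfrp4-/- and 5288 ± 1306 CPM in WT libraries (SD, n = 2 each). The log2 fold change was -0.47 ± 0.40 (SE), within the spread of the libraries (edgeR adjusted p = 1.00). It stayed below 0 under all 11 alternatives, from -0.72 without Sfrp4-/- replicate 2 to -0.20 without WT replicate 1. Car3 took 0.317% and 0.524% of all counts in Sfrp4-/- libraries, and 0.545% and 0.424% in WT libraries.

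Muscle and fat are tissues in which Car3 is abundant, and many of their listed genes had no count. Of 20 skeletal muscle genes, 11 had no count in any library, among them the myosin heavy chains Myh1, Myh2, Myh4 and Myh7, myoglobin (Mb) and the muscle regulators Myod1 and Myog. The 20 genes summed to 8.47 and 12.1 CPM in Sfrp4-/- libraries and 6.46 and 9.43 CPM in WT libraries. Of 12 adipocyte genes, 6 had no count in any library, namely Plin1, Plin4, Cfd, Lep, Retn and Cidec. The 12 genes summed to 42.2 and 32.9 CPM in Sfrp4-/- libraries and 27.2 and 23.8 CPM in WT libraries. Most of this was Lpl, the lipoprotein lipase, at 30.8 and 26.1 CPM in Sfrp4-/- libraries and 16.6 and 20.5 CPM in WT libraries. The adipokine gene Adipoq was at 4.21 and 0.583 CPM in Sfrp4-/- libraries and 0.799 and 0 CPM in WT libraries. The muscle light chain gene Mylpf was at 2.59 and 2.87 CPM in Sfrp4-/- libraries and 0.866 and 1.57 CPM in WT libraries. Per length, Car3 exceeded the summed TPM of the muscle genes 212-fold and 262-fold in Sfrp4-/- libraries, and 812-fold and 315-fold in WT libraries. The sum of the 9 chondrocyte genes, like Car3, was highest in WT replicate 1. It was 190.1 and 74.1 CPM in Sfrp4-/- libraries and 500.1 and 123 CPM in WT libraries. Unlike Car3, it was lowest in Sfrp4-/- replicate 2. The sum of the genes listed for the labelled cells, mostly Col1a1 and Col1a2, was also highest in WT replicate 1, at 251470 CPM. Ctsk, in the same list, was instead lowest in that library, at 1053 CPM. Of the 7 chondrocyte genes tested, 1 was above 0 and 6 below, with a median log2 fold change of -1.04 and 0 past the test. The gene with the lowest p among them, Col10a1, the collagen of hypertrophic chondrocytes, was at 0.108 and 0.146 CPM in Sfrp4-/- libraries and 70.9 and 3.90 CPM in WT libraries, so it was lower in both Sfrp4-/- libraries, on 2 and 3 counts, and by far highest in WT replicate 1 (edgeR adjusted p = 1.00). The part of muscle cells, adipocytes or chondrocytes in the level of Car3 was not tested.

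The genes whose pattern over the 4 libraries was most like that of Car3 were sought among 8793 other protein-coding genes with a mean of at least 5 CPM. Likeness was the root mean square distance between log2(CPM + 0.5) values centred on each gene's mean. The 5 nearest were Cbx5, Arntl, Ncoa6, Pdzd2 and Kmt2c, at distances of 0.0447 to 0.0574 log2 units. None is a carbonic anhydrase, and their mean levels were 6.07 to 37.7 CPM in Sfrp4-/- libraries and 8.87 to 52.4 CPM in WT libraries. With 4 libraries the likeness is a description.

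Car13, the remaining cytosolic enzyme of the cluster (ENSMUSG00000027555, plus strand of chromosome 3, 14641727 to 14663002), was at 11.6 and 17.2 CPM in Sfrp4-/- libraries and 11.2 and 25.7 CPM in WT libraries. Replicate 2 was the higher in both genotypes, and the groups overlapped. The log2 fold change was -0.36 ± 0.47 (SE), and it was 0.36 without WT replicate 2. Car8 (ENSMUSG00000041261, minus strand of chromosome 4, 8143362 to 8239041) lacks catalytic activity and is known for its role in the cerebellum. Its level was likewise higher in replicate 2 of both genotypes, and the groups overlapped. It was at 2.64 and 7.58 CPM in Sfrp4-/- libraries and 4.86 and 11.4 CPM in WT libraries, with a log2 fold change of -0.66 ± 0.65 (SE) and 0.075 without WT replicate 2. For both genes the difference between replicates of 1 genotype was at least as large as that between genotypes. Replicate 2 was higher in both genotypes in 3 of the 8 tested members, Car8, Car9 and Car13, and in 31.2% of all tested genes.

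Of the membrane enzymes, whose active sites face outside the cell, Car12 and Car9 were detected at low levels and Car4 was not. Car12 (ENSMUSG00000032373, plus strand of chromosome 9, 66713686 to 66766845) was at 10.0 and 7.78 CPM in Sfrp4-/- libraries and 6.06 and 14.7 CPM in WT libraries. Both Sfrp4-/- values fell between the WT values. Its log2 fold change was -0.23 ± 0.49 (SE), and 0.55 without WT replicate 2. Car9, a classical target of the hypoxia response (ENSMUSG00000028463, plus strand of chromosome 4, 43506966 to 43513729), had 10 and 28 counts in Sfrp4-/- libraries and 8 and 24 counts in WT libraries. Its levels of 0.539 and 1.36 CPM in Sfrp4-/- libraries and 0.533 and 1.40 CPM in WT libraries nearly coincided by replicate number. The ratio of pooled Car9 levels, Sfrp4-/- over WT, was 0.977, and its 95% exact interval, for counting error only, ran from 0.594 to 1.62. The log2 fold change of Car9 was -0.024 ± 1.12 (SE). The sign of the Car9 value was not stable, at 0.83 without WT replicate 2, 0.49 without Sfrp4-/- replicate 1 and 0.23 with library totals alone. Car4, the lipid-anchored enzyme of capillary walls (ENSMUSG00000000805, plus strand of chromosome 11, 84957786 to 84966044), had 0 counts in every library. Against a floor of 3 counts per library this allows up to 0.146 to 0.200 CPM, so a lower level was not detectable at this depth. Endothelial genes were sparse too, with the 6 listed genes summing to 3.67 and 3.40 CPM in Sfrp4-/- libraries and 17.4 and 1.22 CPM in WT libraries.

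The mitochondrial and secreted enzymes were at or near 0. Car5b, a mitochondrial enzyme (ENSMUSG00000031373, minus strand of chromosome X, 163976822 to 164027997), had 9 and 14 counts in Sfrp4-/- libraries and 10 and 1 counts in WT libraries. WT replicate 2 stood lowest and the other libraries lay together. The ratio of pooled Car5b levels was 1.72, and its 95% exact interval, for counting error only, ran from 0.806 to 3.91. The log2 fold change was 0.69 ± 1.46 (SE), and -0.19 without WT replicate 2. Of its 50-base windows, 3.79% occurred in transcripts of other genes. Car6, the enzyme secreted in saliva (ENSMUSG00000028972, minus strand of chromosome 4, 150187015 to 150201332), had 0 counts in every library, with the same floor as Car4.

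The rest of the family was read in the same fit, and 0 of its 4 tested genes passed. Car7, a cytosolic enzyme known from brain, had 0 and 5 counts in Sfrp4-/- libraries and 19 and 21 counts in WT libraries. Both Sfrp4-/- libraries were lower, with a log2 fold change of -3.26 ± 1.59 (SE). The pooled ratio, Sfrp4-/- over WT, was 0.103. Its 95% exact interval, which covers counting error only and not the spread between libraries, ran from 0.0317 to 0.261. Car11, which lacks catalytic activity, was at 3.29 and 3.60 CPM in Sfrp4-/- libraries and 6.26 and 7.45 CPM in WT libraries, a log2 fold change of -0.99 ± 0.45 (SE, edgeR adjusted p = 1.00). Both Sfrp4-/- libraries lay below both WT libraries in these 2 of the 4 tested genes, beside 12.6% of all tested genes. The receptor phosphatases Ptprg and Ptprz1, which carry a carbonic anhydrase-like domain, had log2 fold changes of -0.062 ± 0.38 and -0.010 ± 0.35 (SE). Car5a had 1 count and Car14 had 6 counts, all in Sfrp4-/- replicate 2, and Car10 and Car15 had none.

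Genes that move bicarbonate, protons, lactate or water alongside these enzymes did not pass either. Of 25 listed genes 20 were tested, with 11 above 0, 9 below 0 and 0 past the test, and a median log2 fold change of 0.15. Bsg, the partner protein of lactate transporters, was the highest in level per length, at 1609 and 1226 CPM in Sfrp4-/- libraries and 1612 and 1765 CPM in WT libraries. Aqp1, a water channel, was at 88.9 and 18.7 CPM in Sfrp4-/- libraries and 53.3 and 34.8 CPM in WT libraries. Slc4a1, the chloride-bicarbonate exchanger of red cells that works with Car2, also stands in the list of red cell precursor genes. It was at 31.1 and 13.7 CPM in Sfrp4-/- libraries and 8.86 and 11.4 CPM in WT libraries. Both Sfrp4-/- libraries were higher, and the log2 fold change was 1.14 ± 0.46 (SE, edgeR adjusted p = 1.00). This order held in 5 of the 20 tested transport genes, beside 15.0% of all tested genes. Slc26a1, an anion exchanger, was at 0.755 and 0.632 CPM in Sfrp4-/- libraries and had no count in WT libraries. In the list of hypoxia response and glycolysis genes, to which Car9 is related by its control, 21 of 22 were tested, with 9 above 0, 12 below 0 and 0 past the test. The glycolytic genes Ldha and Aldoa were the highest in level per length, with log2 fold changes of -0.24 ± 0.36 and 0.17 ± 0.31 (SE). The gene with the lowest p in that list, Ankrd37, was at 6.69 and 4.37 CPM in Sfrp4-/- libraries, against 0.666 and 0.233 CPM in WT libraries (log2 fold change 3.62 ± 0.78, SE, edgeR adjusted p = 1.00). Adm, a peptide hormone induced by hypoxia, was at 14.2 and 15.99 CPM in Sfrp4-/- libraries and 16.5 and 29.8 CPM in WT libraries.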

How the data were processed

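The authors deposited raw counts per gene for 4 libraries, whole numbers that had not been normalized, with gene coordinates and lengths. Per the labels' protocols, sorted cells gave non-directional ultra-low-input SMARTer libraries. The build was mm10, per the submitters' processing notes, which also name HISAT2 2.0.5, DESeq2 1.20.0, CASAVA and featureCounts 1.00-p3. The role and options of each were not given in the sources used here. Groups and replicate numbers came from the sample titles. No pair of libraries was alike within sampling noise, with chi-square over degrees of freedom at 54.2 or more.

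Genes kept by filterByExpr were tested with edgeR 4.0.16 (R 4.3.3): TMM factors, quasi-likelihood test, genotype as the only term, Benjamini-Hochberg adjustment over 13737 genes, threshold 0.05. SE is the log2 fold change over the square root of F. CPM uses TMM-scaled totals, and TPM the deposited gene length. Alternatives used DESeq2 1.42.0, limma 3.58.1 and other filters, scalings and libraries. Intervals and floors (3 counts) cover counting error only. The fit was tested on simulated data. The coordinates of the 10 genes equal those in GENCODE M21, and coding sequences were aligned globally with Biopython 1.88.

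The members, the lists and the tests were chosen with earlier results of these data known. The text names the 10 members, Sfrp4, the rest of the family, and from the other lists genes with the highest level per length or the lowest p.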

Additional observations from a re-analysis of the deposited data

How the results depend on the processing

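No carbonic anhydrase gene was called under any of the 11 alternatives. Over all genes, 0 were called by the edgeR test, 20 without a filter on low counts, 7 with DESeq2, 1 with the replicate number as a block, and 0 to 2 with single libraries left out. Of 86 values of single members under the alternatives, 79 kept their direction and 7 turned. Car9 was at 0.23 on the log2 scale with library totals alone. Leaving out single libraries gave log2 fold changes of -0.84 to 0.36 for Car13, -1.61 to 0.075 for Car8, -0.73 to 0.55 for Car12, -0.83 to 0.83 for Car9 and -0.19 to 3.19 for Car5b. The cause was not tested. A genotype with 1 library left was assumed to vary like the other.

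The genotypes share replicate numbers, which mark no shared animal or day in the labels. Differences between replicates 1 and 2 in WT and in Sfrp4-/- libraries correlated at 0.32 across genes, which are not independent replicates. With the replicate block, log2 fold changes were 1.203 for Car1, 0.89 for Car2 and -0.47 for Car3 (edgeR adjusted p = 0.641, 0.689 and 0.856), and the block changed no call among the members. Sfrp4 passed with the block (edgeR adjusted p = 0.0218), without a filter (2.24e-10) and with DESeq2 (2.58e-12), and missed the threshold in the reported edgeR fit (0.377) and under the other 8 alternatives, with adjusted p from 0.0948 to 0.997. A single count was worth 0.0486 to 0.0666 CPM, so Car5b, Car9 and Car7 rest on few counts.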
